A study of Mus musculus with 15 samples.

Results

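TH17 cultures were compared with Treg cultures of mouse CD4 T cells when both had received the compound Srci1, to describe which differences between the cultures remain in its presence. The comparison rests on 6 of the 15 libraries of the series, 3 from TH17 cultures with Srci1 and 3 from Treg cultures with Srci1. It covers the 11832 of 55421 gene IDs that reached at least 1 TPM in at least 3 of these 6 libraries. TPM is a gene's share of all transcripts in a library after correction for transcript length, scaled to the same total in every library. Naive CD4 T cells (CD25 negative, CD62L high, CD44 low) were taken by sorting from wild-type spleen and lymph node and plated on anti-CD3 (2 µg/ml) and anti-CD28 (1 µg/ml). TH17 cultures received TGFβ at 2.5 ng/ml together with IL-6, IL-1β and IL-23 at 10 ng/ml each. Treg cultures received TGFβ at 0.5 ng/ml (the labels allow for exceptions that they do not list) and IL-2 at 200 U/ml. All cultures held antibodies blocking IFNγ and IL-4. Srci1 went into the wells 24 h after plating, its dose being absent from the labels read here, and RNA was taken on day 5. The same pair of cultures with DMSO, the solvent control, gave 3 libraries each and served to show which differences the compound left. No library is shared between the Srci1 and the DMSO comparison. The other 3 libraries are TH17 cultures with DMSO from mice with floxed Stat3 alleles and a Cd4-driven Cre, and enter only the estimate of the spread. Each culture difference therefore holds the difference in TGFβ dose, in the other cytokines and in cell state together. Whether replicates came from separate mice or cultures is not shown in the labels, so p-values measure the spread among these libraries only, and that spread may be technical.

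TH17 cells are helper T cells that secrete IL-17 cytokines at mucosal surfaces, and their programme is built by IL-6, IL-21 and IL-23 acting through the transcription factor STAT3. Treg cells restrain immune responses, depend on IL-2 and STAT5, and are defined by the transcription factor Foxp3. Both fates can be induced from the same naive cell by TGFβ. The series as a whole addresses how signals of the T-cell receptor lead to phosphorylation of STAT3 while TH17 cells form.

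Within each Srci1 culture the libraries resembled each other, with Pearson correlations over the tested genes of 0.984 to 0.987 in the 6 pairs of the same culture, against 0.935 to 0.94 in the 9 pairs of a TH17 with a Treg library. Transcripts of ribosomal protein genes took 22 ± 0.6% of all TPM in TH17 Srci1, 20.7 ± 0.46% in Treg Srci1, 28.2 ± 2% in TH17 DMSO and 24.9 ± 0.15% in Treg DMSO libraries (SD, n = 3 each). Their part in the results was tested only by leaving these and the mitochondrial genes out. Stat3 averaged 34.2 ± 3.9 TPM in the STAT3 knockout libraries, against 121 ± 18.3 TPM in wild-type TH17 DMSO libraries. The summed TPM of 10 CD4 T cell markers ran between 5276 and 5406 in TH17 Srci1 and between 5390 and 5878 in Treg Srci1 libraries. Of 10 myeloid and dendritic markers, 3 were at 0 in all TH17 Srci1 and 5 in all Treg Srci1 libraries, and the sum lay between 4.25 and 5.15 TPM in TH17 Srci1 and between 1.82 and 2.87 TPM in Treg Srci1. The sum of 8 B cell markers was 515.4 to 548.4 TPM in TH17 Srci1 and 273.3 to 297.1 TPM in Treg Srci1, of which Ighm gave nearly all. The sum of 8 CD8 T and NK cell markers was 90.09 to 118.4 TPM in TH17 Srci1 and 11.11 to 12.21 TPM in Treg Srci1, most of it from Klrd1. The sum of 4 γδ T cell markers was 11.19 to 17.27 TPM in TH17 Srci1 and 74.74 to 86.62 TPM in Treg Srci1, most of it from Tcrg-C1 and Tcrg-C2. The other 2 markers were low. Trdc, for the δ chain, had 0.45, 0.66 and 0.4 TPM in TH17 Srci1 and 0.67, 0.61 and 1.09 TPM in Treg Srci1. Sox13 had 0 TPM in all TH17 Srci1 libraries and 0, 0.11 and 0.05 TPM in Treg Srci1. The 5 red cell markers summed to 3.42 to 5.23 TPM in TH17 Srci1 and to 23.49 to 34.75 TPM in Treg Srci1. The part of such cells in the differences was not tested.

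With Srci1 in both, 4483 of the 11832 genes (37.9%) differed between the cultures, 1947 higher in TH17 (16.5%) and 2536 lower (21.4%), by limma on log2(TPM + 1) at a Benjamini-Hochberg adjusted p under 0.05. A difference of at least 2-fold on that scale was reached by 581 of the higher genes (4.91%) and 463 of the lower genes (3.91%). With DMSO in both, the same genes gave 5493 calls (46.4%), 1491 higher in TH17 (12.6%) and 4002 lower (33.8%), of which 385 (3.25%) and 888 (7.51%) were at least 2-fold apart. Of these DMSO calls, 2907 genes remained called in the same direction with Srci1 (24.6% of all tested), 1014 of them higher in TH17 and 1893 lower. They make up 52.9% of the genes called with DMSO and 64.8% of those called with Srci1. The filter used the Srci1 libraries alone, so genes that passed 1 TPM only in DMSO libraries were not tested. Such genes could not be counted as called with DMSO and lost with Srci1, and the 52.9% holds for the tested genes only. Of the 1273 genes that were called and at least 2-fold apart with DMSO, 1005 remained (78.9%). Of these, 645 were still at least 2-fold apart in the same direction. The libraries of the 2 cultures did not overlap for 6386 tested genes (54%) with Srci1 and for 6414 (54.2%) with DMSO. A lack of overlap is thus common among all genes.

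The difference between the culture differences was tested directly, as TH17 minus Treg with Srci1 minus the same with DMSO, and is named the interaction here. It passed for 1757 genes (14.8%), 1397 of them positive (11.8%) and 360 negative (3.04%), and at least 2-fold for 438 (3.7%) of the positive and 88 (0.744%) of the negative ones. A culture difference that was called with DMSO but not with Srci1, and whose interaction passed, was counted as lost: this held for 577 genes (4.88%), 108 that were higher and 469 (3.96%) that were lower in TH17 with DMSO. The reverse, a difference that appeared with Srci1, held for 425 genes (3.59%), 331 higher (2.8%) and 94 lower in TH17 Srci1. A further 155 genes (1.31%) turned, being called with Srci1 in the direction opposite to that with DMSO, 129 of them higher in TH17 Srci1 (1.09%) and 26 lower. Among the genes that remained, the interaction also passed for 577 (4.88%), and the difference was larger with Srci1 for 197 of these and smaller for 380 (3.21%).

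The balance of higher and lower calls depends on the scaling of libraries, with Srci1 as with DMSO and for the interaction. Positive interaction calls stayed the more numerous under each scaling tried. Under median-of-ratios scaling the DMSO calls were 2655 higher and 2578 lower, and the interaction calls 1092 positive and 679 negative. The Srci1 calls were then 2390 higher and 2208 lower, against 1947 and 2536 as deposited, so that the larger side changed. The median log2 difference over all tested genes was -0.075 with Srci1, -0.19 with DMSO and 0.13 for the interaction as deposited, and changes of single genes can be read against these shifts. Without replicate 3 of TH17 Srci1 the negative interaction calls numbered 234 and the differences that appeared 272, and without replicate 2 of Treg DMSO or replicate 1 of Treg Srci1 these were 235 and 280.

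**Figure D1:**
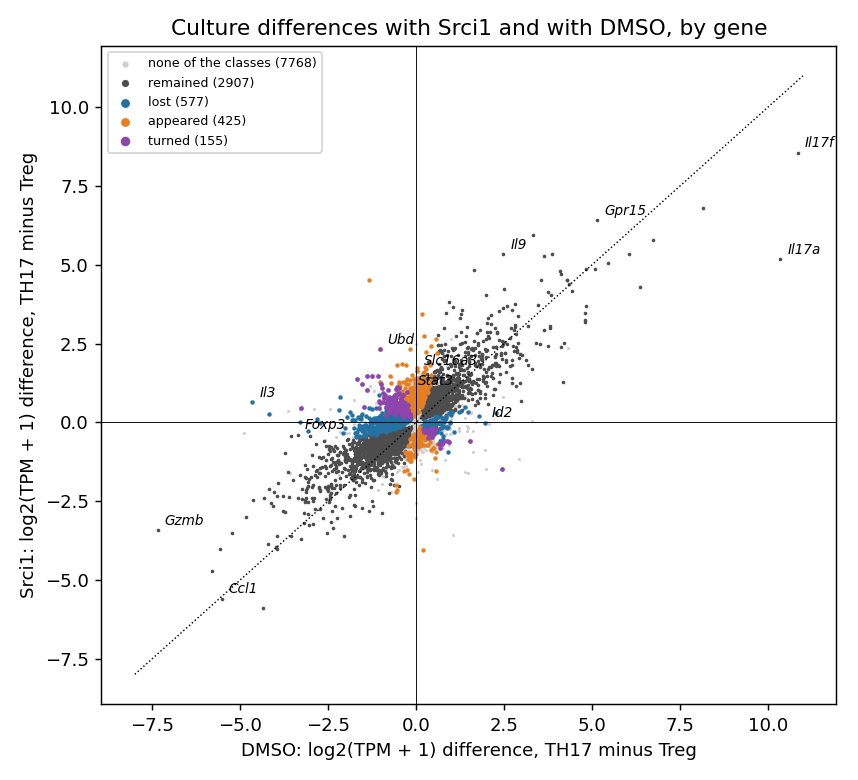
The culture difference with Srci1 (vertical axis, log2(TPM + 1) of TH17 minus Treg) is plotted against the culture difference with DMSO (horizontal axis, same unit) for all 11832 tested genes, coloured by whether the difference remained (2907 genes), was lost (577), appeared (425), turned (155) or fell in none of these classes. Most genes that remained lie along the diagonal, those that were lost lie near 0 on the vertical axis, those that appeared near 0 on the horizontal axis, and those that turned in the other 2 quadrants.

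The cytokines by which TH17 cells are known stayed higher in TH17 than in Treg cultures with Srci1. Of the 10 listed TH17 cytokines, Il17a, Il17f, Il21, Il22, Il24, Il10 and Il9 reached 1 TPM in no Treg Srci1 library and so entered the test through TH17 Srci1 alone, which leaves their direction no room to vary. All 7 were called higher, and so were the 3 others, where 16.5% of all tested genes were. With DMSO, 9 of the 10 were higher, where 12.6% of all tested genes were. In bulk libraries such as these, fewer cells of a kind and less RNA per cell cannot be told apart. Il17a (chr1:20730905-20734496, GRCm38), the founding cytokine of the lineage, had 42, 36.5 and 42.5 TPM in replicates 1, 2 and 3 of TH17 Srci1 and 0.18, 0 and 0.24 TPM in those of Treg Srci1. The DMSO libraries had 1279.8, 1356 and 1378 TPM in TH17 and 0, 0.08 and 0 TPM in Treg cultures. All TH17 libraries were thus far above all Treg libraries under either condition, and the gap was narrower with Srci1. The log2 difference was 5.18 ± 0.12 (SE, adjusted p = 4.34e-13) with Srci1 and 10.35 with DMSO, with an interaction of -5.17 (adjusted p = 1.8e-10).

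Il17f (chr1:20777146-20790617), the neighbouring relative of Il17a, had 552, 518 and 524 TPM in TH17 Srci1 and 0.57, 0.41 and 0.25 TPM in Treg Srci1 libraries. Its difference of 8.57 ± 0.14 was the largest positive one among the genes named by size, and the interaction of -2.29 was smaller than that of Il17a (adjusted p = 4.48e-06). In TH17 Srci1 libraries Il17f averaged 531 ± 18.1 TPM and Il17a 40.4 ± 3.31 TPM, and in TH17 DMSO libraries Il17f averaged 2551 ± 111 TPM and Il17a 1338 ± 51.5 TPM (SD, n = 3 each). Il21, which feeds back on T cells through STAT3, had 61.5, 48.7 and 53.1 TPM in TH17 Srci1 and 0, 0 and 0.02 TPM in Treg Srci1 libraries. The TH17 libraries were all high and the Treg libraries at or near 0, with a log2 difference of 5.78 ± 0.14. Its interaction of -0.94 (adjusted p = 0.00467) turned to 1.37 with a pseudocount of 0.1, with Treg DMSO libraries at 0.86, 1.16 and 0.8 TPM, so its direction rests on the scale. Il22, which acts on epithelium, was low, with 3.42, 2.53 and 1.76 TPM in TH17 Srci1 and 0 in every Treg Srci1 library (log2 difference 1.81 ± 0.16, adjusted p = 6.73e-07). Il24, a cytokine of the IL-10 family, had 17.9, 19 and 23.9 TPM in TH17 Srci1 and 0.64, 0 and 0 TPM in Treg Srci1 libraries, a log2 difference of 4.16 ± 0.20 against 4.42 with DMSO.

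For Il9, a growth factor for mast cells and T cells, the gap was wider with Srci1. It had 52.3, 41.6 and 40.3 TPM in TH17 Srci1 and 0, 0.41 and 0 TPM in Treg Srci1 libraries. With DMSO, Il9 had 8.49, 4.23 and 7.09 TPM in TH17 and 1.32, 0 and 0 TPM in Treg cultures. The TH17 Srci1 libraries stood above the 9 others, and the log2 difference was 5.34 ± 0.31 with Srci1 and 2.48 with DMSO. The interaction of 2.86 (adjusted p = 0.00062) no longer passed with a pseudocount of 0.1 (adjusted p = 0.0896). Csf2, the myeloid growth factor GM-CSF and a gene named after its values were seen, had 12.5, 15.1 and 13.2 TPM in TH17 Srci1 and 8.34, 7.57 and 7.54 TPM in Treg Srci1 libraries. These did not overlap (log2 difference 0.73 ± 0.11, adjusted p = 0.000127). With DMSO its libraries overlapped, at 24.4, 26.8 and 23.9 TPM in TH17 and 24.2, 27.2 and 27.6 TPM in Treg cultures.

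**Figure D2:**
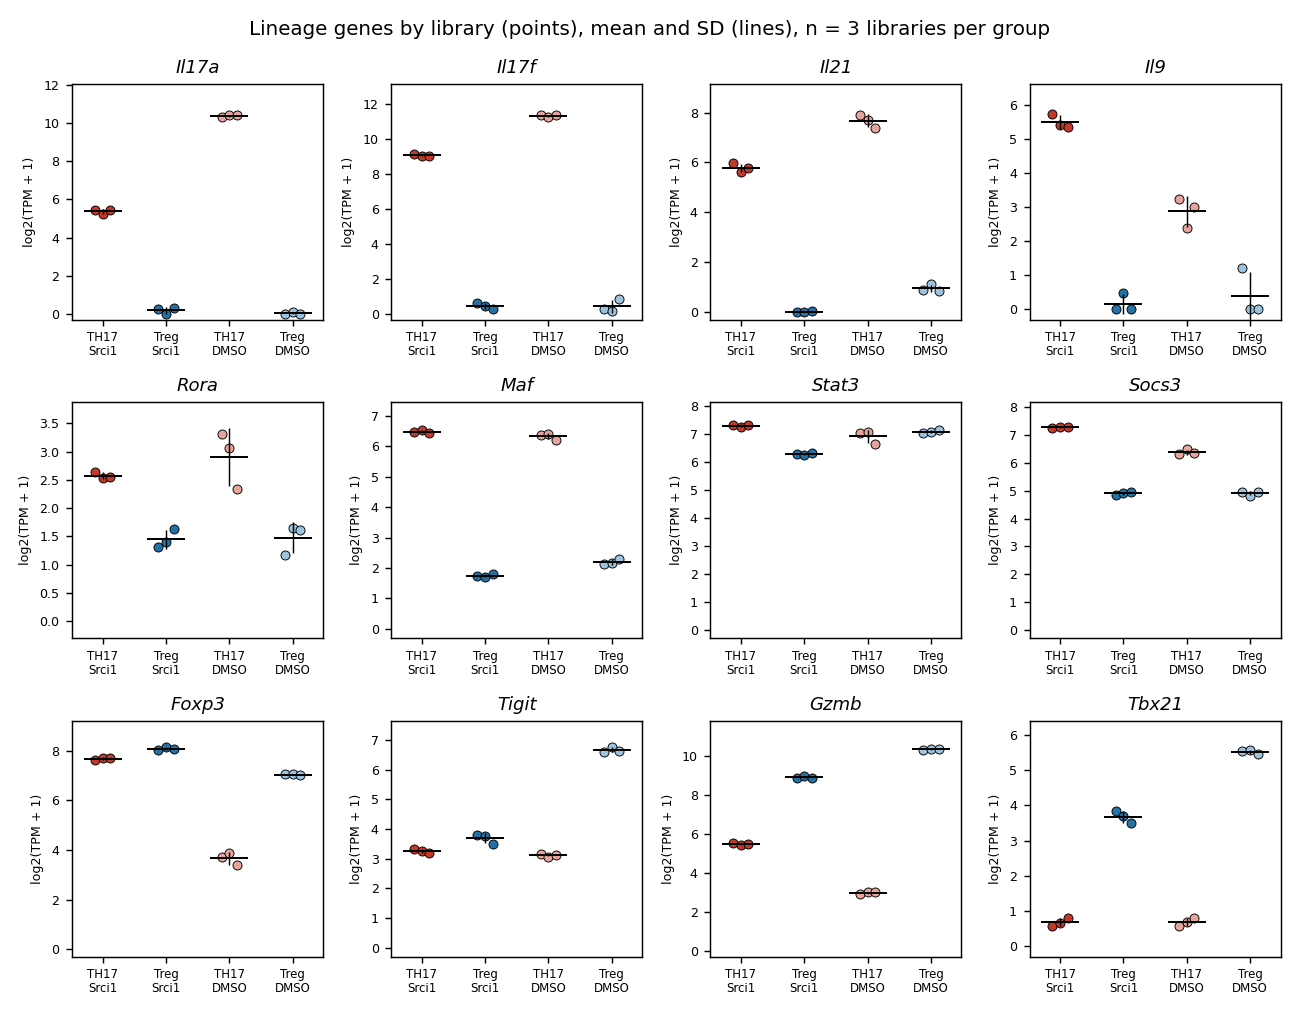
TPM on a log2(TPM + 1) axis of 12 lineage genes in each of the 12 libraries of the 4 groups, with TH17 Srci1 left of Treg Srci1 and TH17 DMSO left of Treg DMSO, points for libraries, horizontal bars for means and vertical lines for the SD. Il17a sits between 36.5 and 42.5 TPM in TH17 Srci1 and near 0 in Treg libraries, while Foxp3 is at 194 TPM or more in all 6 Srci1 libraries.

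The transcription factors of the TH17 programme also remained higher, with 11 of 12 listed factors called higher and none lower (16.5% and 21.4% of all tested genes), and a median log2 difference of 1.12 against -0.075 over all genes. With DMSO 9 of the 12 were higher and none lower (12.6% and 33.8%). Maf, a bZIP factor that sustains IL-21 and IL-10, had 86.3, 90.9 and 85 TPM in TH17 Srci1 and 2.36, 2.27 and 2.46 TPM in Treg Srci1 libraries (log2 difference 4.72 ± 0.10, interaction 0.59, adjusted p = 0.0104). Ahr, the aryl hydrocarbon receptor, had 16.2, 13.6 and 15 TPM in TH17 Srci1 and 0.95, 0.87 and 1.13 TPM in Treg Srci1 libraries. Nfil3, a bZIP repressor, had 35.5, 34.4 and 36.9 TPM in TH17 Srci1 and 11.9, 13.1 and 12.1 TPM in Treg Srci1 libraries. Rora, a nuclear receptor gene of the TH17 programme, had 5.24, 4.77 and 4.89 TPM in TH17 Srci1 and 1.47, 1.64 and 2.11 TPM in Treg Srci1 libraries, with a log2 difference of 1.13 ± 0.23 (adjusted p = 0.0016).

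Stat3 itself (chr11:100885098-100939540) differed between the cultures only in the calls with Srci1, and the interaction passed. It had 158, 152 and 161 TPM in TH17 Srci1 and 76.1, 75.2 and 78.2 TPM in Treg Srci1 libraries. With DMSO the libraries overlapped, at 129.7, 133 and 99.8 TPM in TH17 and 129.6, 134 and 139.9 TPM in Treg cultures. The TH17 Srci1 level was 2.05-fold the Treg Srci1 level (log2 difference 1.03 ± 0.10, adjusted p = 1.68e-06, interaction 1.19, adjusted p = 8.06e-05), with Treg Srci1 the lowest of the 4 groups. Runx1, a partner of Foxp3, was the listed factor without a call, at 28, 25.6 and 22.5 TPM in TH17 Srci1 and 40, 22.3 and 41.9 TPM in Treg Srci1 libraries, which overlapped. Its log2 difference was -0.39 (95% interval -0.86 to 0.08) and passed as lower in TH17 only without replicate 2 of Treg Srci1 (-0.68, adjusted p = 0.012).

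Of 12 listed TH17 receptors and surface proteins, Il23r, Il1r1, Ltb4r1 and Il17re entered the test through TH17 Srci1 alone and were all called higher. Of the 8 others, 5 were higher and none lower with Srci1 (16.5% and 21.4% of all tested genes). With DMSO 7 of the 12 were higher and 2 lower (12.6% and 33.8%). Il23r, the receptor chain for IL-23, had 4.86, 2.75 and 3.99 TPM in TH17 Srci1 and 0, 0.04 and 0 TPM in Treg Srci1 libraries (log2 difference 2.24 ± 0.23, adjusted p = 3.09e-06). Il1r1, the IL-1 receptor, had 7.68, 5.29 and 7.19 TPM in TH17 Srci1 and 0.05, 0.02 and 0.08 TPM in Treg Srci1 libraries. Ltb4r1, the leukotriene B4 receptor, had 47.4, 47.2 and 51.8 TPM in TH17 Srci1 and 0.29, 0.38 and 0.06 TPM in Treg Srci1 libraries. Tmem176b, a membrane protein, had 66.9, 62.9 and 61.1 TPM in TH17 Srci1 and 15.2, 14.2 and 16.1 TPM in Treg Srci1 libraries. The libraries of the cultures did not overlap for Tmem176b, which held for 54% of all tested genes. For Il23r, Il1r1 and Ltb4r1 the filter left no room for overlap. Il21r, the IL-21 receptor, showed the pattern of Stat3, with 159, 157 and 159 TPM in TH17 Srci1 and 77.1, 82.3 and 81.5 TPM in Treg Srci1 libraries. With DMSO, Il21r had 117, 121 and 96.7 TPM in TH17 and 105, 107 and 103 TPM in Treg cultures. Its log2 difference was 0.97 ± 0.07 with Srci1 and 0.08 with DMSO, and the interaction passed (0.89, adjusted p = 6.33e-05).

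A list of components and responding genes of IL-6 and STAT3 signalling held Timp1 and Cebpd, which entered the test through TH17 Srci1 alone and were called higher. Of its 13 others, 7 were higher and 1, the kinase gene Tyk2, lower (16.5% and 21.4% of all tested genes). With DMSO 6 of the 15 were higher and 3 lower (12.6% and 33.8%). Socs3, the feedback inhibitor of IL-6 receptor signalling, had 151, 157 and 157 TPM in TH17 Srci1 and 28, 29 and 29.9 TPM in Treg Srci1 libraries. With DMSO it had 78.6, 88.5 and 80.3 TPM in TH17 and 29.6, 27.4 and 30.2 TPM in Treg cultures. The TH17 Srci1 libraries were the highest and those of the 2 Treg groups overlapped, and the log2 difference was 2.38 ± 0.07 with Srci1 and 1.47 with DMSO (interaction 0.91, adjusted p = 4.16e-05). Timp1, an inhibitor of metalloproteinases and a classical IL-6 target, had 135, 127 and 130.4 TPM in TH17 Srci1 and 0, 0.66 and 0 TPM in Treg Srci1 libraries (log2 difference 6.8 ± 0.22). Bcl3, an atypical IκB protein, had 139, 151 and 152 TPM in TH17 Srci1 and 49, 51 and 47.8 TPM in Treg Srci1 libraries.

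Foxp3 (chrX:7573644-7595245) had the largest interaction of the tested factors listed for either lineage. It had 194, 208 and 209 TPM in TH17 Srci1 and 257, 279 and 270.1 TPM in Treg Srci1 libraries, against 12.2, 13.6 and 9.37 TPM in TH17 DMSO and 131, 131 and 127 TPM in Treg DMSO libraries. Every TH17 Srci1 library stood above every Treg DMSO library, and still below every Treg Srci1 library. The Treg mean was 1.32-fold the TH17 mean with Srci1 and 11.1-fold with DMSO. The log2 difference of -0.40 ± 0.10 still passed (adjusted p = 0.00658), and the interaction was 2.98 (adjusted p = 1.23e-08).

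Of the 8 tested Treg transcription factors, 4 were lower and 1 higher in TH17 Srci1 (21.4% and 16.5% of all tested genes), and with DMSO 5 were lower and 1 higher (33.8% and 12.6%). Under median-of-ratios scaling the Srci1 counts were 3 and 3, against 2208 lower and 2390 higher of the 11832 tested genes. Satb1, a chromatin organiser of thymic Treg development, was the one higher in TH17, with 486, 424 and 457 TPM in TH17 Srci1 and 89, 89.6 and 95.3 TPM in Treg Srci1 libraries. Gata3, also the TH2 factor, had 9.94, 13 and 12.6 TPM in TH17 Srci1 and 18.3, 20 and 21.3 TPM in Treg Srci1 libraries (log2 difference -0.71 ± 0.13, adjusted p = 0.000566). Bach2, a repressor of effector genes, had 24.8, 20.9 and 23 TPM in TH17 Srci1 and 28.8, 33.9 and 34.2 TPM in Treg Srci1 libraries (log2 difference -0.48 ± 0.15, adjusted p = 0.0223). Ikzf2, which encodes Helios, had 1.5, 2.12 and 1.32 TPM in TH17 Srci1 and 2.98, 2.85 and 3.68 TPM in Treg Srci1 libraries (log2 difference -0.66 ± 0.23, adjusted p = 0.0384). These 2 calls were not stable. Bach2 missed the threshold without replicate 2 or 3 of either Srci1 culture (adjusted p = 0.085, 0.0522, 0.0693 and 0.0747). Ikzf2 missed it without replicate 1 or 3 of TH17 Srci1 or any replicate of Treg Srci1 (adjusted p = 0.09, 0.123, 0.0676, 0.0592 and 0.122).

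Of 20 tested Treg surface and effector genes, 5 were higher and 10 lower in TH17 Srci1 (16.5% and 21.4% of all tested genes), and 4 were higher and 12 lower with DMSO (12.6% and 33.8%). Of these, Itgae entered the test through TH17 Srci1 alone. Il2ra, the high-affinity IL-2 receptor chain CD25, was abundant in both cultures, with 1288, 1155 and 1179.9 TPM in TH17 Srci1 and 1026, 1072 and 1101 TPM in Treg Srci1 libraries. The TH17 libraries were all higher but the log2 difference of 0.18 (95% interval -0.04 to 0.40) did not pass (adjusted p = 0.191), whereas it passed under median-of-ratios scaling (0.25, adjusted p = 0.00589). Ctla4, the inhibitory receptor for CD80 and CD86, was higher in the TH17 culture, with 434, 363 and 372 TPM in TH17 Srci1 and 244, 251 and 249 TPM in Treg Srci1 libraries (log2 difference 0.65 ± 0.10, adjusted p = 0.000171). Cd83, a marker of activated Treg cells, had 0.81, 1.18 and 1.05 TPM in TH17 Srci1 and 19, 17.1 and 16.3 TPM in Treg Srci1 libraries. Tnfrsf18, which encodes GITR, had 223, 230.2 and 231 TPM in TH17 Srci1 and 449, 470.5 and 433 TPM in Treg Srci1 libraries, and the opioid precursor gene Penk had 0.68, 0.86 and 1.17 TPM in TH17 Srci1 and 7.82, 10.3 and 9.29 TPM in Treg Srci1 libraries. These 3 remained lower in TH17 cultures without overlap, where 54% of all tested genes had none. Itgae, the integrin CD103 induced by TGFβ, was higher in TH17, with 8.85, 7.34 and 7.99 TPM in TH17 Srci1 and 0.68, 0.91 and 0.99 TPM in Treg Srci1 libraries. Its log2 difference of 2.29 ± 0.14 was larger than the 0.67 with DMSO (interaction 1.62, adjusted p = 0.00012).

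Tigit, an inhibitory receptor named after its values were seen, had 9.12, 8.56 and 8.12 TPM in TH17 Srci1 and 13, 12.7 and 10.2 TPM in Treg Srci1 libraries. With DMSO, Tigit had 7.86, 7.41 and 7.75 TPM in TH17 and 97.1, 109 and 99.3 TPM in Treg cultures. Only the Treg DMSO libraries were high, and the log2 difference was -0.43 ± 0.09 with Srci1 (adjusted p = 0.00222) and -3.56 with DMSO (interaction 3.14, adjusted p = 2.53e-09).

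Genes of TH1 and cytotoxic cells lay mostly on the Treg side. Of 17 tested, Tbx21, Eomes, Fasl and Gzmc entered through Treg Srci1 alone and were all called lower. Of the 13 others, 9 were lower and 3 higher in TH17 Srci1 (21.4% and 16.5% of all tested genes). With DMSO 15 of the 17 were lower and 1 higher (33.8% and 12.6%). Gzmb (chr14:56258838-56262260), the protease granzyme B, had 45.6, 41.3 and 44.2 TPM in TH17 Srci1 and 470, 498 and 462 TPM in Treg Srci1 libraries. With DMSO, Gzmb had 6.51, 6.94 and 7.07 TPM in TH17 and 1244, 1290.05 and 1302 TPM in Treg cultures. The groups did not overlap under either condition, the Treg mean being 10.9-fold the TH17 mean with Srci1 and 187-fold with DMSO, with a log2 difference of -3.42 ± 0.07 (adjusted p = 7.89e-14) and an interaction of 3.93 (adjusted p = 5.32e-12). Tbx21, the gene of T-bet, had 0.49, 0.58 and 0.74 TPM in TH17 Srci1 and 13.3, 11.9 and 10.4 TPM in Treg Srci1 libraries. Treg DMSO libraries had 45.6, 46.4 and 43.1 TPM, and the log2 difference was -3.0 ± 0.12 with Srci1 and -4.84 with DMSO (interaction 1.85, adjusted p = 1.26e-05). Its relative Eomes kept its difference, with 0.46, 0.57 and 0.55 TPM in TH17 Srci1 and 12.9, 13.8 and 13.6 TPM in Treg Srci1 libraries (log2 -3.24 ± 0.12 with Srci1 and -2.92 with DMSO). The granule protein gene Nkg7 had 4.06, 4.51 and 1.99 TPM in TH17 Srci1 and 114, 119 and 108 TPM in Treg Srci1 libraries.

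The 3 genes of this list that were higher in TH17 Srci1 were the transcription factor gene Runx3, Il12rb2, a chain of the IL-12 receptor, and Prf1, which encodes perforin, all chosen after their values were seen. Runx3 had 48.7, 53 and 53.2 TPM in TH17 Srci1 and 23.4, 25.6 and 25.9 TPM in Treg Srci1 libraries and remained from the DMSO comparison. Il12rb2 had 27, 21.8 and 22.6 TPM in TH17 Srci1 and 9.02, 9.54 and 10.5 TPM in Treg Srci1 libraries. With DMSO, Il12rb2 had 35.3, 29.5 and 18.9 TPM in TH17 and 55.5, 51.9 and 57 TPM in Treg cultures, so that the order of the cultures turned (log2 difference 1.21 ± 0.19, adjusted p = 0.000159, interaction 2.21, adjusted p = 9.23e-05). Prf1 had 3.48, 3.74 and 2.66 TPM in TH17 Srci1 and 2.39, 1.86 and 2.02 TPM in Treg Srci1 libraries. With DMSO, Prf1 had 0.52, 0.66 and 1.08 TPM in TH17 and 17.1, 14.8 and 15.3 TPM in Treg cultures (log2 difference 0.47 ± 0.14, adjusted p = 0.0188, interaction 3.74, adjusted p = 4.98e-08). The Srci1 call of Prf1 was lost without replicate 1 or 2 of TH17 Srci1 (adjusted p = 0.057 and 0.0819) or replicate 2 or 3 of Treg Srci1 (0.0695 and 0.0543).

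Chemokine genes fell on the same side. Of 8 tested, 6 were lower and 1 higher in TH17 Srci1, one of the lower ones, Ccl22, having entered through Treg Srci1 alone (21.4% and 16.5% of all tested genes). The counts with DMSO were also 6 and 1 (33.8% and 12.6%). Ccl1, the ligand of CCR8, had 1.67, 2.61 and 2.93 TPM in TH17 Srci1 and 162, 149 and 175 TPM in Treg Srci1 libraries, and its log2 difference of -5.6 ± 0.14 was close to the -5.53 with DMSO. Of the genes for the inflammatory chemokines of the list, Ccl3 had 6.22, 6.21 and 7.33 TPM in TH17 Srci1 and 57.7, 42.2 and 40.9 TPM in Treg Srci1 libraries, and Ccl4 had 11.6, 9.78 and 10.1 TPM in TH17 Srci1 and 55.8, 66.5 and 56.1 TPM in Treg Srci1 libraries. Xcl1, a chemokine for cross-presenting dendritic cells, had 13.7, 15.1 and 21.2 TPM in TH17 Srci1 and 98.4, 95.9 and 93.1 TPM in Treg Srci1 libraries. With DMSO, Xcl1 had 2.37, 3.09 and 5.2 TPM in TH17 and 113, 111 and 103 TPM in Treg cultures. Every Treg library was at 93.1 TPM or more, the TH17 Srci1 libraries stood above the TH17 DMSO libraries, and the interaction was 2.17 (adjusted p = 7.61e-05).

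Chemokine receptors lay on the TH17 side, with 7 of 10 tested higher and 1 lower (16.5% and 21.4% of all tested genes). Cxcr6, not among these 7, was the member that entered through TH17 Srci1 alone. Cxcr4, the CXCL12 receptor, had 60.6, 74.5 and 69.3 TPM in TH17 Srci1 and 15.2, 13.8 and 13.1 TPM in Treg Srci1 libraries. Ccr4, a skin-homing receptor, had 178, 165 and 164 TPM in TH17 Srci1 and 76.5, 82.3 and 80 TPM in Treg Srci1 libraries. Ccr8, the receptor of CCL1, turned: it had 51, 54 and 51.5 TPM in TH17 Srci1 and 32.5, 34.2 and 34.8 TPM in Treg Srci1 libraries. With DMSO, Ccr8 had 42.6, 38.6 and 33.5 TPM in TH17 and 61.3, 62.5 and 65 TPM in Treg cultures. Its log2 difference was 0.61 ± 0.08 with Srci1 (adjusted p = 2.79e-05) and -0.71 with DMSO, and the interaction was 1.32 (adjusted p = 3.74e-06).

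Of 13 tested co-stimulatory and checkpoint genes, 7 were lower and 4 higher in TH17 Srci1 (21.4% and 16.5% of all tested genes), with Cd160 among the lower ones having entered through Treg Srci1 alone. The inhibitory receptor gene Pdcd1, for PD-1, had 9.92, 10.2 and 9.29 TPM in TH17 Srci1 and 33.1, 38.4 and 34.7 TPM in Treg Srci1 libraries. Cd160, another receptor of the list, had 0.55, 0.55 and 0.76 TPM in TH17 Srci1 and 12, 13.8 and 14.9 TPM in Treg Srci1 libraries. The 2 genes for the CTLA-4 ligands went opposite ways. Cd80 had 7.83, 5.48 and 5.87 TPM in TH17 Srci1 and 17.2, 18.4 and 17.4 TPM in Treg Srci1 libraries, a log2 difference of -1.35 ± 0.11 against -3.16 with DMSO (interaction 1.81, adjusted p = 4.71e-06). Cd86 had 29.1, 23.4 and 24.4 TPM in TH17 Srci1 and 1.69, 2.44 and 2 TPM in Treg Srci1 libraries, with a log2 difference of 3.13 ± 0.20.

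Among the 8 genes with the largest positive differences, besides Il17f, Il21, Il9, Timp1 and Ltb4r1, were Gpr15, Upp1 and Procr. All of the 8 but Upp1 entered the test through TH17 Srci1 alone, which leaves their direction no room to vary. Gpr15, a gut-homing receptor, had 101, 93 and 102 TPM in TH17 Srci1 and 0.17, 0.25 and 0.1 TPM in Treg Srci1 libraries. With DMSO, Gpr15 had 40.4, 39.7 and 36.2 TPM in TH17 and 0.21, 0.11 and 0.06 TPM in Treg cultures (log2 difference 6.41 ± 0.12 with Srci1, interaction 1.27, adjusted p = 0.000216). With a pseudocount of 0.1 that interaction was 1.06 and missed the threshold (adjusted p = 0.0569). Upp1, a uridine phosphorylase, had 189, 199 and 172 TPM in TH17 Srci1 and 1.99, 2.75 and 1.48 TPM in Treg Srci1 libraries. Its difference of 5.95 ± 0.15 exceeded that of 3.33 with DMSO (interaction 2.62, adjusted p = 2.75e-06), with Treg DMSO libraries at 33.4, 27.8 and 26.9 TPM. Procr, the endothelial protein C receptor, had 46.8, 49.5 and 45.3 TPM in TH17 Srci1 and 0.18, 0.25 and 0.27 TPM in Treg Srci1 libraries (log2 difference 5.29 ± 0.14, interaction 1.66, adjusted p = 9.02e-05).

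The 8 genes with the largest negative differences held Ccl1 and Nkg7 as well as Ms4a4c, Iigp1, Tnfsf10, Gbp6, Nrgn and Eno3, and all 8 also remained from the DMSO comparison. Tnfsf10, the death ligand TRAIL, had 1.29, 1.37 and 1.76 TPM in TH17 Srci1 and 35.8, 37.3 and 38.8 TPM in Treg Srci1 libraries. Nrgn, which encodes the calmodulin-binding protein neurogranin, had 0, 0.06 and 0 TPM in TH17 Srci1 and 12.8, 12.4 and 11.3 TPM in Treg Srci1 libraries. Eno3, the muscle form of enolase, had 8.02, 8.53 and 8.47 TPM in TH17 Srci1 and 111, 108 and 122 TPM in Treg Srci1 libraries. No library of one culture overlapped with the other in these 3 genes, but their choice required this. Genes were named by size only where the libraries did not overlap, and Nrgn entered the test through Treg Srci1 alone. Ms4a4c had 1.56, 1.91 and 0.51 TPM in TH17 Srci1 and 142, 129.9 and 127 TPM in Treg Srci1 libraries. Of the interferon-inducible GTPase genes, Iigp1 had 1.26, 1.64 and 1.24 TPM in TH17 Srci1 and 35.1, 36.7 and 41.5 TPM in Treg Srci1 libraries, and Gbp6 had 1.22, 0.49 and 0.77 TPM in TH17 Srci1 and 23.8, 24.5 and 28 TPM in Treg Srci1 libraries. Ms4a4c, Iigp1 and Gbp6 have close copies in the genome, between which reads can be split, so their levels are uncertain.

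Type I interferon response genes lay on the same side: of 9 tested, 5 were lower in TH17 Srci1 and none higher (21.4% and 16.5% of all tested genes). One of the 5, Ifit3, entered through Treg Srci1 alone. All 9 were lower with DMSO, where 33.8% of all tested genes were. The list held 14 genes, of which Ifit1, Mx1, Oasl2, Rsad2 and Ifi44 were too low with Srci1 to be tested. The highest of these in Treg DMSO libraries were Mx1, at 6.28, 3.83 and 2.93 TPM, and Oasl2, at 2.34, 2.1 and 3.37 TPM. In TH17 DMSO libraries Mx1 had 0.31, 0.29 and 0.47 TPM and Oasl2 0.09, 0.1 and 0 TPM. Irf7, an amplifier of the interferon response, had 3.4, 3.18 and 2.96 TPM in TH17 Srci1 and 6.25, 6.09 and 6.92 TPM in Treg Srci1 libraries. Xaf1 had 2.49, 3.72 and 1.27 TPM in TH17 Srci1 and 11.7, 18.5 and 11.7 TPM in Treg Srci1 libraries. Ifit3 stayed under 2 TPM in these libraries, with 0.11, 0.1 and 0.23 TPM in TH17 Srci1 and 1.56, 1.81 and 1.57 TPM in Treg Srci1.

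Of the 8 named genes whose difference was lost with Srci1, Id2 and Serpina3g had the highest levels. Id2 (chr12:25093799-25097140), an inhibitor of E proteins, had 124, 112 and 108 TPM in TH17 Srci1 and 116, 114 and 118 TPM in Treg Srci1 libraries. With DMSO, Id2 had 297, 299 and 309 TPM in TH17 and 76.4, 75.9 and 80.2 TPM in Treg cultures. The Srci1 libraries overlapped and the DMSO libraries did not, with log2 differences of -0.01 (95% interval -0.13 to 0.11) and 1.95 and an interaction of -1.96 (adjusted p = 1.87e-09). Its relative Id3 differed in the other direction, with 17.1, 18.9 and 16.9 TPM in TH17 Srci1 and 74.6, 75.9 and 74.2 TPM in Treg Srci1 libraries. With DMSO, Id3 had 20.9, 27.6 and 27.7 TPM in TH17 and 35.4, 37.6 and 34.1 TPM in Treg cultures. Treg Srci1 libraries stood above all others for Id3, and the log2 difference was -2.03 ± 0.10 with Srci1 and -0.48 with DMSO (interaction -1.54, adjusted p = 7.73e-06).

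Il3, the haematopoietic growth factor, had 25.6, 17.5 and 20.1 TPM in TH17 Srci1 and 14.2, 11.6 and 13.6 TPM in Treg Srci1 libraries. With DMSO, Il3 had 0.25, 1.5 and 0.78 TPM in TH17 and 39.9, 46.8 and 44.6 TPM in Treg cultures. Its TH17 libraries were the lower ones with DMSO and the higher ones with Srci1, though the Srci1 difference of 0.63 (95% interval 0.07 to 1.20) did not pass (adjusted p = 0.0725), and the interaction of 5.29 did (adjusted p = 8.08e-07). It passed at an adjusted p of 0.0116 when only the compared groups entered the fit. Serpina3g, a serine protease inhibitor of activated T cells, had 97.6, 94.8 and 102 TPM in TH17 Srci1 and 93.7, 111 and 91.1 TPM in Treg Srci1 libraries. With DMSO, Serpina3g had 22.1, 20.7 and 17.5 TPM in TH17 and 216, 193 and 212 TPM in Treg cultures (interaction 3.3, adjusted p = 1.4e-09). Serpina3f had 8.82, 9.3 and 9.52 TPM in TH17 Srci1 and 7.92, 7.48 and 7.11 TPM in Treg Srci1 libraries, which did not overlap (log2 difference 0.27, interaction 4.46, adjusted p = 3.68e-10). Its Srci1 difference passed under median-of-ratios scaling (0.33, adjusted p = 0.00892) and quantile normalization (0.33, adjusted p = 0.00675). It also passed without ribosomal protein and mitochondrial genes (0.29, adjusted p = 0.0476). The sign was then opposite to the -4.2 with DMSO, so its class as lost rests on the scaling. The Serpina3 genes are close copies of each other, so reads may be split between them.

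The other named genes whose difference was lost were lower in level. Dlk1, a Notch ligand relative, had 1.71, 1.88 and 1.66 TPM in TH17 Srci1 and 2.71, 2.18 and 2.2 TPM in Treg Srci1 libraries. With DMSO, Dlk1 had 0.29, 1.42 and 0.45 TPM in TH17 and 9.27, 15.6 and 15.1 TPM in Treg cultures (interaction 2.79, adjusted p = 4.87e-05). The actin-associated gene Nebl had 1.36, 2.3 and 2.98 TPM in TH17 Srci1 and 1.24, 2.63 and 1.05 TPM in Treg Srci1 libraries. With DMSO, Nebl had 11.7, 18.4 and 12.2 TPM in TH17 and 2.15, 1.68 and 2.4 TPM in Treg cultures (interaction -1.98, adjusted p = 0.00407). For both, 1 DMSO culture was high and the 3 other groups were low. The potassium channel subunit gene Kcnmb4 and Kctd11 had interactions of -1.56 (adjusted p = 0.00179) and -1.16 (adjusted p = 0.00236), with Srci1 differences of 0.21 and 0.31. Under median-of-ratios scaling the Srci1 difference of Kctd11 passed (0.35, adjusted p = 0.0421).

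Among the differences that appeared, Batf3, a bZIP factor related to Batf, had 22.8, 30.3 and 28.1 TPM in TH17 Srci1 and 2.16, 5.37 and 3.29 TPM in Treg Srci1 libraries. With DMSO, Batf3 had 21.4, 25.1 and 28.2 TPM in TH17 and 16.4, 14.2 and 19.4 TPM in Treg cultures. Treg Srci1 was the low group, with a log2 difference of 2.65 ± 0.24 (adjusted p = 6.92e-07) and an interaction of 2.1 (adjusted p = 0.000788). Il1rn, the antagonist of the IL-1 receptor, had 14.6, 12.1 and 11.8 TPM in TH17 Srci1 and 0.22, 0.34 and 0.29 TPM in Treg Srci1 libraries. The DMSO libraries overlapped, at 3.54, 3.73 and 3.73 TPM in TH17 and 1.01, 2.36 and 9.83 TPM in Treg cultures, with replicate 3 of Treg DMSO far above the other two, and the interaction was 3.27 (adjusted p = 0.00306). Slc2a2, a glucose transporter known from liver and pancreas, had 8.11, 5.88 and 6.65 TPM in TH17 Srci1 and 0.24, 0.26 and 0 TPM in Treg Srci1. It stayed below 1 TPM in every DMSO library of these cultures (interaction 2.54, adjusted p = 1.91e-06). Il1rn and Slc2a2 entered the test through TH17 Srci1 alone, so the direction of their Srci1 difference was fixed. Rsph3a, a gene with a close copy, had 196, 152 and 164 TPM in TH17 Srci1 and 37.5, 37.7 and 25.8 TPM in Treg Srci1 libraries (interaction 2.49, adjusted p = 0.00126).

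In the other direction, Nsg2, a neuronal vesicle protein gene, had 8.06, 7.58 and 7.48 TPM in TH17 Srci1 and 25.7, 26 and 26.7 TPM in Treg Srci1 libraries. With DMSO, Nsg2 had 8.15, 10.3 and 7.65 TPM in TH17 and 9.17, 11.1 and 10.1 TPM in Treg cultures (interaction -1.44, adjusted p = 3.34e-05). Only Treg Srci1 was high. Ms4a6c, a gene of a family with close copies and so of uncertain level, had 2.44, 1.39 and 1.89 TPM in TH17 Srci1 and 12.9, 13.4 and 10.6 TPM in Treg Srci1 libraries (interaction -1.62, adjusted p = 0.00636). Col15a1, a collagen gene, had 0.22, 0.83 and 0.79 TPM in TH17 Srci1 and 4.31, 6.9 and 5.11 TPM in Treg Srci1 libraries (interaction -1.43, adjusted p = 0.01). Col15a1 entered the test through Treg Srci1 alone, so the direction of its Srci1 difference was fixed. Ggct, an enzyme of glutathione breakdown, had 3.1, 4.09 and 5.45 TPM in TH17 Srci1 and 12.1, 16.7 and 13.6 TPM in Treg Srci1 libraries. Its interaction of -1.19 (adjusted p = 0.0239) missed the threshold without replicate 1 of TH17 Srci1 or replicate 2 of Treg Srci1 (-1.03 and -1.07, adjusted p = 0.0599 in each case).

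Of the differences that turned, the ubiquitin-like modifier gene Ubd had 224, 206 and 220.4 TPM in TH17 Srci1 and 46.1, 40.6 and 42.1 TPM in Treg Srci1 libraries. With DMSO, Ubd had 34.9, 28.8 and 26 TPM in TH17 and 63.6, 62.4 and 58.3 TPM in Treg cultures. TH17 Srci1 was the highest group and TH17 DMSO the lowest, with log2 differences of 2.31 ± 0.17 and -1.02 and an interaction of 3.34 (adjusted p = 9.74e-07). Actr3b, a component of the actin-branching Arp2/3 complex, had 70.1, 72.5 and 68.2 TPM in TH17 Srci1 and 28.1, 31.3 and 30.4 TPM in Treg Srci1 libraries. With DMSO, Actr3b had 6.09, 5.98 and 4.27 TPM in TH17 and 16.8, 17.9 and 17.6 TPM in Treg cultures (interaction 2.73, adjusted p = 8.09e-08). Myadm, a membrane-raft protein gene, averaged 19.5 ± 0.296 TPM in TH17 Srci1, 8.93 ± 0.127 TPM in Treg Srci1, 2.64 ± 0.361 TPM in TH17 DMSO and 8.53 ± 0.713 TPM in Treg DMSO (SD, n = 3 each, interaction 2.43, adjusted p = 1.86e-07). The stress gene Nupr1 had 18.1, 15.2 and 16.4 TPM in TH17 Srci1 and 5.76, 5.34 and 5.03 TPM in Treg Srci1 libraries. The order was the reverse with DMSO, with 5.75, 4.42 and 5.88 TPM in TH17 and 17.1, 13.6 and 15.9 TPM in Treg cultures (interaction 2.85, adjusted p = 4.01e-06).

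The opposite turn was seen for Cd24a, a glycoprotein of immature lymphocytes, with 10.6, 9.06 and 10.2 TPM in TH17 Srci1 and 16.1, 16.9 and 14.8 TPM in Treg Srci1 libraries. With DMSO, Cd24a had 39.8, 32.1 and 36.1 TPM in TH17 and 18.9, 18.6 and 17.5 TPM in Treg cultures (interaction -1.56, adjusted p = 4.71e-06). Ifitm1, an interferon-induced membrane protein gene, had 25.9, 27.6 and 27.6 TPM in TH17 Srci1 and 48.5, 50.2 and 46.6 TPM in Treg Srci1 libraries. With DMSO, Ifitm1 had 37.3, 38 and 41.1 TPM in TH17 and 31.4, 21.1 and 20.9 TPM in Treg cultures (interaction -1.49, adjusted p = 0.000278). In both genes the libraries of the cultures did not overlap under either agent (54% of all tested genes with Srci1, 54.2% with DMSO). Genes that turned were named by size only where this held, so it is no result of its own. St6galnac2, a sialyltransferase gene, and Rev3l, a DNA polymerase gene, also turned, with Srci1 differences of -0.60 (adjusted p = 0.0206) and -0.62 (adjusted p = 0.0227) and interactions of -1.48 and -1.37 (adjusted p = 0.00186 and 0.00441). The Srci1 call was lost without replicate 1 or 2 of TH17 Srci1 for both (adjusted p = 0.0668 and 0.0641 for St6galnac2, 0.0559 and 0.0978 for Rev3l). It was also lost without replicate 2 of Treg Srci1 for St6galnac2 (0.0596) and without replicate 3 of Treg Srci1 for Rev3l (0.101).

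**Figure D3:**
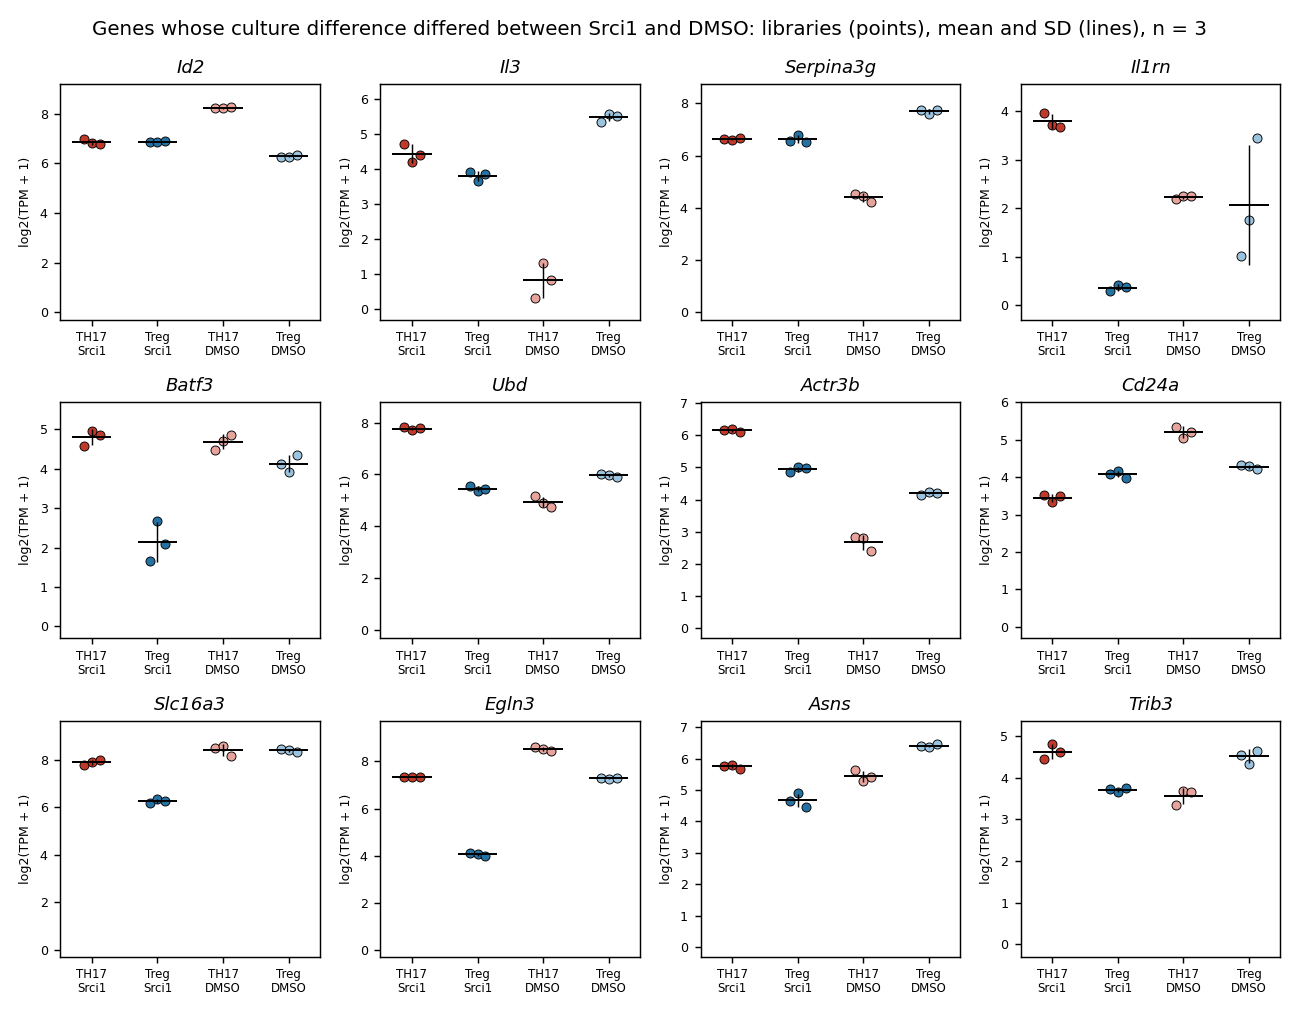
TPM on a log2(TPM + 1) axis of 12 genes whose culture difference was lost, appeared, turned or grew with Srci1, in each library of the 4 groups, with TH17 left of Treg within each agent, points for libraries, horizontal bars for means and vertical lines for the SD. Id2 is at 108 to 124 TPM in all 6 Srci1 libraries, while Asns is higher in TH17 than in Treg libraries with Srci1 and lower with DMSO.

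Of 22 listed genes of glycolysis and the hypoxia response, 20 were higher and none lower in TH17 cultures with Srci1. Their median log2 difference was 0.70, and 16.5% of all tested genes were higher. The enolase gene Eno3, described above, was not on the list and lay on the other side (log2 difference -3.62). With DMSO, 10 genes of the list were higher and 3 lower (12.6% and 33.8% of all tested genes), with a median of 0.185. The interaction was positive for 18 and negative for none, where 11.8% of all tested genes had a positive one. Under median-of-ratios scaling the DMSO counts were 17 and 2 and the interaction was positive for 12. Of the 11832 tested genes, 2655 were then higher and 2578 lower with DMSO, and 1092 had a positive interaction. Activated T cells use glycolysis for growth, and hypoxia-inducible factor 1 drives these genes by binding hypoxia response elements. The window from 250 bases before to 50 bases after the annotated start was searched on both strands for ACGTG, the core of that element. It occurred in 15 of the 21 list genes with a RefSeq window (71.4%), in 30.1% of the 8803 tested genes with one and in 19.6% of all 32851 windows. The letters CACGTG hold the core on both strands. These windows of Slc16a3 and Egln3, the 2 list genes with the largest Srci1 differences, both with the motif, are shown 5′ to 3′ with each match in capitals. They are from RefSeq on GRCm38.p6, Slc16a3 at chr11:120948817-120949116 on the plus strand and Egln3 at chr12:54203825-54204124 on the minus strand.
Slc16a3: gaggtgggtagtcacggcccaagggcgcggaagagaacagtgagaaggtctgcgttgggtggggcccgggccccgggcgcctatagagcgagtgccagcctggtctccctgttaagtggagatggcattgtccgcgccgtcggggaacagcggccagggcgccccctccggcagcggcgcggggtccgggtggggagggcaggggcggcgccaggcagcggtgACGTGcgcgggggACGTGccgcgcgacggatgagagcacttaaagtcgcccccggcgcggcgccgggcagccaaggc
Egln3: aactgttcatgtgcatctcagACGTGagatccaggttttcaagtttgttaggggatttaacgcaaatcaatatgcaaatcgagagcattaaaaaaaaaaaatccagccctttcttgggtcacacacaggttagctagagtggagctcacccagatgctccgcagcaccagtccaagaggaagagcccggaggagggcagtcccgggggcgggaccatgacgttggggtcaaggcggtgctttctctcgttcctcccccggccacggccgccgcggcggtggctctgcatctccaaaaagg
A match is a run of letters and not a site shown to be bound.

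Egln3 (chr12:54178981-54203860), a prolyl hydroxylase that marks hypoxia-inducible factors for destruction, had 163, 162 and 163 TPM in TH17 Srci1 and 16.3, 15.5 and 15 TPM in Treg Srci1 libraries. With DMSO, Egln3 had 389.8, 374 and 346 TPM in TH17 and 156, 153 and 155 TPM in Treg cultures. The libraries of both cultures lay lower with Srci1 than with DMSO, and the log2 difference was 3.31 ± 0.07 with Srci1 and 1.25 with DMSO (interaction 2.06, adjusted p = 2.29e-08). Slc16a3, the lactate exporter MCT4, had 219, 241 and 250.2 TPM in TH17 Srci1 and 70.2, 80.6 and 74.7 TPM in Treg Srci1 libraries. Its DMSO libraries overlapped, at 356, 384 and 280.5 TPM in TH17 and 349.99, 335 and 314 TPM in Treg cultures (log2 difference 1.64 ± 0.10, interaction 1.62, adjusted p = 4.44e-06). Slc2a1, the glucose transporter GLUT1, had 96.9, 104 and 106 TPM in TH17 Srci1 and 48.6, 49.2 and 49.9 TPM in Treg Srci1 libraries (log2 difference 1.04 ± 0.06, interaction 0.61, adjusted p = 0.000193). Bnip3, a mitophagy receptor, had 103, 105 and 115 TPM in TH17 Srci1 and 41.4, 39.5 and 44.5 TPM in Treg Srci1 libraries (log2 difference 1.35 ± 0.08, interaction 1.04, adjusted p = 4.04e-05). For these 4 genes Treg Srci1 was the lowest of the 4 groups.

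The amino acid stress list, genes that the transcription factor ATF4 induces when amino acids are short, changed sides. With Srci1, 9 of 16 tested were higher and 3 lower in TH17 (16.5% and 21.4% of all tested genes), with a median log2 difference of 0.24. With DMSO 1 was higher and 14 were lower (12.6% and 33.8% of all tested genes), with a median of -0.70. The interaction was positive for 15 of the 16 and negative for none (11.8% and 3.04% of all tested genes). Of the list, 8 genes turned, where 1.31% of all tested genes did. Under median-of-ratios scaling the counts were 9 and 3 with Srci1 and 2 and 11 with DMSO. Of the 11832 tested genes, 2390 were then higher and 2208 lower with Srci1, and 2655 higher and 2578 lower with DMSO. ATF4 binds composite C/EBP-ATF elements, and their letters TGATGNAA were searched on both strands of the same windows. They occurred in 4 of the 16 list genes with a window (25%), namely Asns, Trib3, Chac1 and Slc7a11, the last of which was too low to be tested. This compares with 2.75% of the 8803 tested genes with a window and 3.97% of all windows. The windows of Asns and Trib3, which turned and hold the motif, are shown as above: Asns at chr6:7693160-7693459 and Trib3 at chr2:152344011-152344310, both on the minus strand.
Asns: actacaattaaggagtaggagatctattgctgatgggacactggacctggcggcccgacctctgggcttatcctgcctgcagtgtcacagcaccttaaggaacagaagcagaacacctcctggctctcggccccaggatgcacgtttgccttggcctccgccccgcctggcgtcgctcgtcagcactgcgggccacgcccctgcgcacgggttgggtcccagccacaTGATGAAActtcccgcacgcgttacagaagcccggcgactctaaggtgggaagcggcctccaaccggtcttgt
Trib3: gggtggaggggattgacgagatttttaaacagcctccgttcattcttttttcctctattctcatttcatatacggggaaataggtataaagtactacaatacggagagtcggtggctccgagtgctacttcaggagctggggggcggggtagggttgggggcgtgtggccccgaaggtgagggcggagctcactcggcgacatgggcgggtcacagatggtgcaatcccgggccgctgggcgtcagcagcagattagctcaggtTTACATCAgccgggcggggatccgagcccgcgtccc
The capitals mark the match, which again is a description of letters. ACGTG occurred in 7 of the 16 genes of this list (43.8%). The STAT motif TTCNNNGAA was searched in the same way. It occurred in 0 of 8 TH17 cytokine genes with a window and in 2 of 13 genes of the IL-6 and STAT3 list (15.4%), against 8.39% of tested genes. The lists were made of genes of these pathways, so the motif shares are no independent test.

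Asns (chr6:7675169-7693254), which makes asparagine, had 53.7, 55.1 and 50.4 TPM in TH17 Srci1 and 24.3, 28.7 and 21 TPM in Treg Srci1 libraries. With DMSO, Asns had 48.4, 37.7 and 41.6 TPM in TH17 and 82.7, 82.3 and 86.5 TPM in Treg cultures. The Treg libraries were the lowest with Srci1 and the highest with DMSO, with log2 differences of 1.08 ± 0.12 and -0.97 and an interaction of 2.05 (adjusted p = 4.44e-06). Trib3, a pseudokinase that feeds back on ATF4, had 21, 27.2 and 23.7 TPM in TH17 Srci1 and 12.3, 11.6 and 12.5 TPM in Treg Srci1 libraries. With DMSO, Trib3 had 9.17, 11.9 and 11.6 TPM in TH17 and 22.6, 19.1 and 24.2 TPM in Treg cultures (log2 difference 0.92 ± 0.13, interaction 1.88, adjusted p = 1.44e-05). Ddit4, an inhibitor of mTORC1, had 194, 219 and 219 TPM in TH17 Srci1 and 86.2, 84 and 88.2 TPM in Treg Srci1 libraries (log2 difference 1.28 ± 0.07, interaction 1.05, adjusted p = 8.04e-06). Phgdh, the entry enzyme of serine synthesis, remained lower, with 184, 201 and 193 TPM in TH17 Srci1 and 399, 422 and 388 TPM in Treg Srci1 libraries (log2 difference -1.06 ± 0.06, interaction 0.54, adjusted p = 0.000673).

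Lipid synthesis genes shifted in the same direction, but only part of them changed sides. Of 24 cholesterol and 12 fatty acid synthesis genes, 5 and 4 turned, where 1.31% of all tested genes did. The difference was lost for 9 and 2 (4.88% of all tested genes). Of 24 cholesterol synthesis genes, 9 were higher and 2 lower in TH17 Srci1, with a median log2 difference of 0.14, against 2 higher and 18 lower with DMSO, with a median of -0.41. Of all tested genes, 16.5% were higher and 21.4% lower with Srci1, and 12.6% higher and 33.8% lower with DMSO. The interaction was positive for 18 and negative for none, where 11.8% of all tested genes had a positive one. Under median-of-ratios scaling 12 were higher and 1 lower with Srci1, 2 higher and 12 lower with DMSO, and the interaction was positive for 14. Of the 11832 tested genes, 2390 were then higher and 2208 lower with Srci1, and 2655 higher and 2578 lower with DMSO. A positive interaction held for 1092 of them. Nsdhl, a sterol dehydrogenase gene, had 56.8, 55.5 and 51.8 TPM in TH17 Srci1 and 39.4, 43.2 and 40.8 TPM in Treg Srci1 libraries. With DMSO, Nsdhl had 20.6, 21.9 and 19.4 TPM in TH17 and 31, 30 and 31.4 TPM in Treg cultures. It turned, with log2 differences of 0.40 ± 0.07 and -0.56 (interaction 0.96, adjusted p = 3.6e-05), and the Srci1 libraries of each culture lay above its DMSO libraries. Fdps, farnesyl diphosphate synthase, had 503, 498 and 493 TPM in TH17 Srci1 and 335, 395 and 319.9 TPM in Treg Srci1 libraries (log2 difference 0.51 ± 0.09, interaction 0.79, adjusted p = 0.000529). Of the enzymes of the mevalonate steps, Mvd had 119.5, 128 and 132 TPM in TH17 Srci1 and 78.2, 79 and 77.7 TPM in Treg Srci1 libraries. Acat2, another of them, had 137, 129.6 and 126 TPM in TH17 Srci1 and 73.7, 83.4 and 79.2 TPM in Treg Srci1 libraries. Neither overlapped between the cultures, which held for 54% of all tested genes.

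Of 12 fatty acid synthesis genes, 7 were higher and 2 lower in TH17 Srci1 (16.5% and 21.4% of all tested genes), against 1 higher and 8 lower with DMSO (12.6% and 33.8%). Under median-of-ratios scaling these counts were 8 and 2 with Srci1 and 3 and 6 with DMSO. Over the 11832 tested genes they were then 2390 and 2208 with Srci1 and 2655 and 2578 with DMSO. Fads2, a desaturase of polyunsaturated fatty acids, had 75.5, 77.3 and 72.9 TPM in TH17 Srci1 and 47, 46.2 and 45.4 TPM in Treg Srci1 libraries. With DMSO, Fads2 had 29.3, 28.9 and 25.3 TPM in TH17 and 44.3, 46.4 and 43.5 TPM in Treg cultures (log2 differences 0.69 ± 0.08 and -0.67, interaction 1.36, adjusted p = 4.44e-06). Fasn, fatty acid synthase, had 248, 264 and 274 TPM in TH17 Srci1 and 182, 185 and 179 TPM in Treg Srci1 libraries. The elongase genes stayed on the other side, Elovl5 with 82.3, 72.2 and 75.1 TPM in TH17 Srci1 and 121, 122 and 121 TPM in Treg Srci1 libraries and Elovl6 with 27.7, 24 and 25.4 TPM in TH17 Srci1 and 46.2, 46 and 58.1 TPM in Treg Srci1 libraries.

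**Figure D4:**
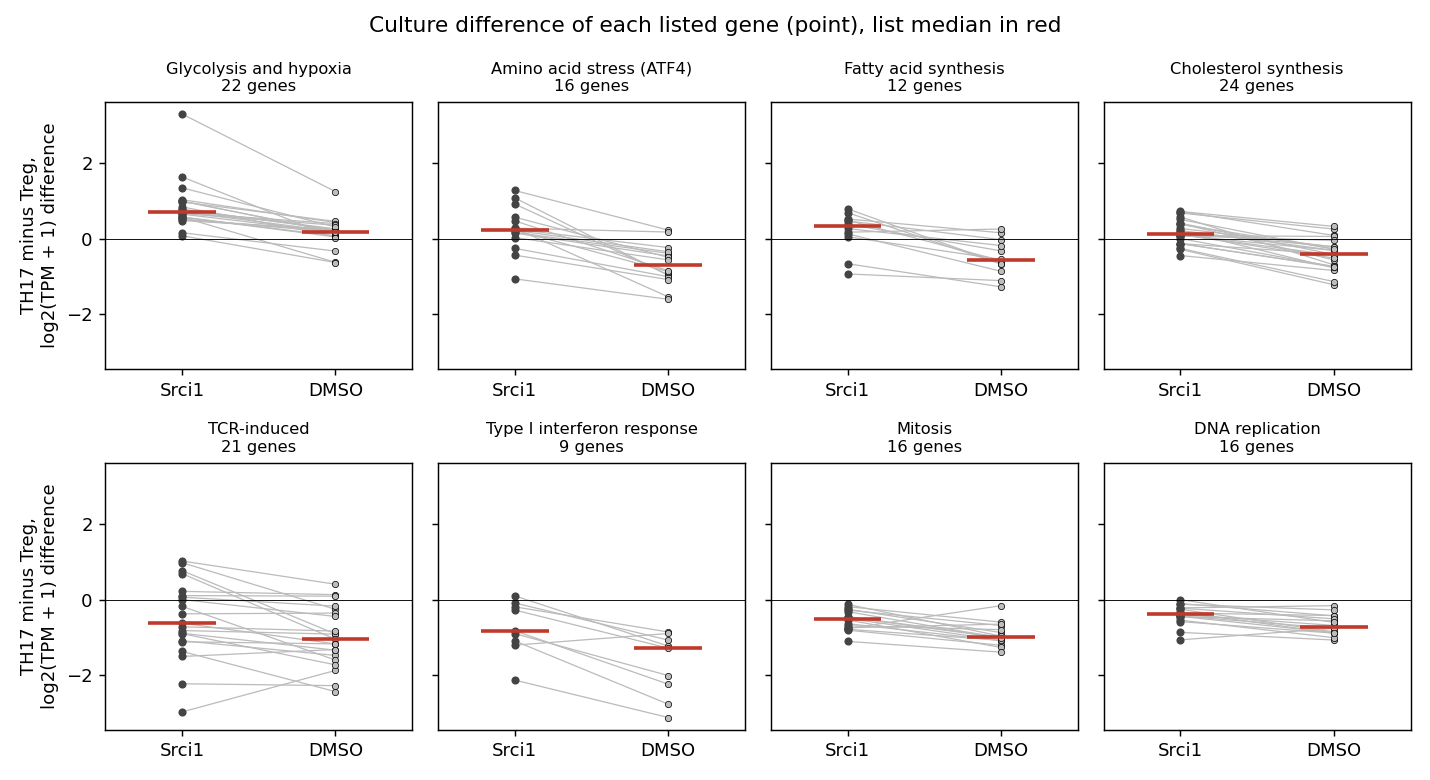
Log2 culture difference (TH17 minus Treg, log2(TPM + 1)) of each tested member of 8 gene lists, with Srci1 left of DMSO in each list, where a point is a gene and a bar is the list's median. The median of the ATF4 list is 0.24 with Srci1 and -0.70 with DMSO, and that of the glycolysis and hypoxia list 0.70 with Srci1 and 0.185 with DMSO, while the TCR-induced, interferon, mitosis and DNA replication lists have medians below 0 under either agent.

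Genes induced by the T-cell receptor were mostly lower in TH17 cultures with Srci1, as with DMSO: 12 of 21 were lower and 4 higher with Srci1 (21.4% and 16.5% of all tested genes), against 18 lower and 1 higher with DMSO (33.8% and 12.6%). The share higher with Srci1 was near that of all genes, and Spry2, among the lower ones, entered through Treg Srci1 alone. Egr3, an early growth response factor, had 5.21, 5.99 and 5.67 TPM in TH17 Srci1 and 48.1, 51.9 and 53.3 TPM in Treg Srci1 libraries. With DMSO, Egr3 had 19.8, 22.2 and 17.4 TPM in TH17 and 76.8, 72.5 and 76 TPM in Treg cultures. Here the gap was wider with Srci1, at a log2 difference of -2.98 ± 0.10 against -1.88 (interaction -1.1, adjusted p = 0.000149). Nr4a1, a nuclear receptor gene commonly read as a reporter of receptor signal strength, had 71.8, 78.1 and 72.9 TPM in TH17 Srci1 and 133, 134 and 128 TPM in Treg Srci1 libraries, and its relative Nr4a3 had 14.3, 10.6 and 16.2 TPM in TH17 Srci1 and 64.2, 67.4 and 69.5 TPM in Treg Srci1 libraries. Their differences of -0.82 ± 0.06 and -2.23 ± 0.13 with Srci1 stood beside -0.92 and -2.28 with DMSO. Jun, a subunit of AP-1, turned, with 60.5, 61.5 and 65.5 TPM in TH17 Srci1 and 31.2, 31.3 and 31.2 TPM in Treg Srci1 libraries. With DMSO, Jun had 36.8, 40 and 35.6 TPM in TH17 and 44.2, 44.2 and 46.8 TPM in Treg cultures (log2 difference 0.98 ± 0.07, interaction 1.24, adjusted p = 1.7e-06).

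Of the 12 tested Src family kinases and their regulators, which start T-cell receptor signalling, 2 were higher and 5 lower in TH17 Srci1 (16.5% and 21.4% of all tested genes), against 1 higher and 7 lower with DMSO (12.6% and 33.8%), so that the share higher with Srci1 was that of all genes. Lck, the kinase that phosphorylates the receptor, had 393, 413 and 406 TPM in TH17 Srci1 and 425, 434 and 409 TPM in Treg Srci1 libraries, which overlapped. Its log2 difference of -0.07 (95% interval -0.17 to 0.04) was not called (adjusted p = 0.296) and was 0.007 under median-of-ratios scaling. Fyn had 101, 98.2 and 104 TPM in TH17 Srci1 and 149.8, 152 and 154 TPM in Treg Srci1 libraries (log2 difference -0.59 ± 0.07), close to its difference of -0.69 with DMSO. The gene Src was near the filter, with 2.02, 2.56 and 2.54 TPM in TH17 Srci1 and 1.13, 1.27 and 0.72 TPM in Treg Srci1 libraries. With DMSO, Src had 0.87, 1.39 and 0.73 TPM in TH17 and 0.84, 1.36 and 1.34 TPM in Treg cultures. Its Srci1 difference of 0.73 ± 0.16 passed (adjusted p = 0.00281). Its interaction of 0.86 (adjusted p = 0.023) missed without replicate 2 or 3 of TH17 Srci1 (0.0527 and 0.055), replicate 3 of Treg Srci1 (0.0585) or replicate 2 or 3 of Treg DMSO (0.0579 and 0.0573). Ptprc, the phosphatase CD45, had 176, 153 and 165 TPM in TH17 Srci1 and 266, 297 and 338 TPM in Treg Srci1 libraries. Ptpn22, a phosphatase acting on Lck, had 33.3, 28.4 and 28.5 TPM in TH17 Srci1 and 47.1, 47.7 and 46.4 TPM in Treg Srci1 libraries. Fgr was under 2 TPM in these libraries and entered the test through Treg Srci1 alone, with 0.04, 0.05 and 0.06 TPM in TH17 Srci1 and 1.25, 1.05 and 1.36 TPM in Treg Srci1.

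Genes of cell division remained lower in TH17 cultures. Of 16 DNA replication genes, 12 were lower and none higher with Srci1, where 21.4% of all tested genes were lower, with a median log2 difference of -0.38 against -0.72 with DMSO, and of 16 mitosis genes 15 were lower and none higher, with medians of -0.52 and -1.0. Tyms, thymidylate synthase, had 119.7, 122 and 107 TPM in TH17 Srci1 and 201, 228 and 209.8 TPM in Treg Srci1 libraries (log2 difference -0.87 ± 0.08). Pcna, the sliding clamp, had 465, 424 and 460.4 TPM in TH17 Srci1 and 618, 623 and 605 TPM in Treg Srci1 libraries. Rrm1 and Ccne1, for ribonucleotide reductase and cyclin E1, had log2 differences of -0.58 ± 0.08 and -0.55 ± 0.08. The mitotic kinase gene Cdk1 had 255, 215 and 217 TPM in TH17 Srci1 and 376, 337 and 357 TPM in Treg Srci1 libraries (log2 difference -0.64 ± 0.07). Ccnb2, Kif11 and Top2a, for cyclin B2, a spindle motor and topoisomerase II, had log2 differences of -0.50 ± 0.06, -1.11 ± 0.14 and -0.79 ± 0.12.

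Of 12 genes of IL-2 and STAT5 signalling, which the Treg medium engages with added IL-2, 5 were higher and 2 lower in TH17 Srci1 (16.5% and 21.4% of all tested genes). Il2 itself had 17.5, 12.5 and 12.3 TPM in TH17 Srci1 and 7.56, 8.77 and 8.34 TPM in Treg Srci1 libraries (log2 difference 0.70 ± 0.16, adjusted p = 0.00348). The survival gene Bcl2l1 had 60.3, 67.5 and 59.1 TPM in TH17 Srci1 and 127, 129.8 and 129 TPM in Treg Srci1 libraries. The kinase gene Jak3 had 125, 139.7 and 136 TPM in TH17 Srci1 and 68.1, 73.8 and 73.4 TPM in Treg Srci1 libraries, so these 2 lay on opposite sides. Stat5b had 97, 95.9 and 106 TPM in TH17 Srci1 and 57.2, 63.9 and 60.9 TPM in Treg Srci1 libraries, again higher in TH17 (log2 difference 0.71 ± 0.11).

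Of 15 TGFβ pathway genes, compared in cultures whose TGFβ dose differed, Itgae and Tgfb3 entered the test through TH17 Srci1 alone and were called higher. Of the 13 others, 7 were higher and 2 lower (16.5% and 21.4% of all tested genes). With DMSO 8 of the 15 were higher and 3 lower (12.6% and 33.8%). Tgfb3, a ligand, had 2.93, 3.79 and 3.14 TPM in TH17 Srci1 and 0.43, 0.26 and 0.33 TPM in Treg Srci1 libraries (log2 difference 1.67 ± 0.15). Of the TGFβ-induced inhibitors of SMAD signalling, Ldlrad4 had 8.91, 7.73 and 9.28 TPM in TH17 Srci1 and 3.14, 3.46 and 3.91 TPM in Treg Srci1 libraries. Pmepa1, another of them, had 26.9, 38.4 and 37 TPM in TH17 Srci1 and 16.2, 14.8 and 15.7 TPM in Treg Srci1 libraries. Neither overlapped between the cultures, which held for 54% of all tested genes.

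Of 12 naive and memory genes, 4 were higher and 3 lower in TH17 Srci1, near the shares of all tested genes for the lower ones (16.5% and 21.4% of all tested genes). Tcf7, which encodes TCF-1, had 400.4, 413 and 414 TPM in TH17 Srci1 and 169, 179 and 175 TPM in Treg Srci1 libraries. S1pr1, the receptor for exit from lymph nodes, had 82, 70.5 and 74.7 TPM in TH17 Srci1 and 37.8, 40.6 and 36.1 TPM in Treg Srci1 libraries. Foxp1, a factor of quiescence, was lower, with 65.7, 56.6 and 68.2 TPM in TH17 Srci1 and 115, 112 and 136 TPM in Treg Srci1 libraries. Of 11 tested integrin genes, 4 were higher, among them Itgae, and 4 lower (16.5% and 21.4% of all tested genes). Itgb3, the β3 chain, had 8.65, 7.73 and 7.74 TPM in TH17 Srci1 and 33.2, 34 and 33.5 TPM in Treg Srci1 libraries. With DMSO, Itgb3 had 1.77, 1.34 and 1.23 TPM in TH17 and 36.2, 36.4 and 35.4 TPM in Treg cultures (log2 differences -1.94 ± 0.11 and -3.92, interaction 1.99, adjusted p = 2.52e-06). Itga6 had 36.7, 30 and 32.1 TPM in TH17 Srci1 and 96.7, 102 and 102 TPM in Treg Srci1 libraries. Itga3 had 17.6, 21 and 18.9 TPM in TH17 Srci1 and 5.18, 6.56 and 5 TPM in Treg Srci1 libraries.

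TH2 genes were higher for 6 of 9 and lower for 1 in TH17 Srci1 (16.5% and 21.4% of all tested genes), against 2 higher and 4 lower with DMSO (12.6% and 33.8%). One of the 6, Il1rl1, entered through TH17 Srci1 alone. Il4ra, the IL-4 receptor chain, had 253, 255 and 261 TPM in TH17 Srci1 and 111, 120.4 and 112 TPM in Treg Srci1 libraries (log2 difference 1.15 ± 0.08). Il1rl1, the IL-33 receptor ST2, was low, with 3.04, 2.2 and 2.47 TPM in TH17 Srci1 and 0.45, 0.44 and 0.46 TPM in Treg Srci1 libraries (log2 difference 1.29 ± 0.15). Ighm, the IgM heavy chain gene and the main contributor to the B cell marker sum, turned, with 543, 508 and 533 TPM in TH17 Srci1 and 271, 292 and 268 TPM in Treg Srci1 libraries. With DMSO, Ighm had 111, 114 and 116 TPM in TH17 and 161, 159 and 162 TPM in Treg cultures (interaction 1.42, adjusted p = 8.72e-08). Klrd1, the CD94 chain of NK receptors, had 104, 77.1 and 86.1 TPM in TH17 Srci1 and 3.52, 3 and 2.37 TPM in Treg Srci1 libraries. Of the γδ receptor constant genes, Tcrg-C1 had 8.27, 3.74 and 7.73 TPM in TH17 Srci1 and 33.9, 28.3 and 31.6 TPM in Treg Srci1 libraries, and Tcrg-C2 had 8.55, 6.79 and 8.3 TPM in TH17 Srci1 and 52.1, 45.8 and 49 TPM in Treg Srci1 libraries. Tcrg-C1 and Tcrg-C2 are close copies, so reads may be split between them.

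The filter of 1 TPM in 3 of the 6 Srci1 libraries admitted 238 genes through the TH17 Srci1 libraries alone and 183 through the Treg Srci1 libraries alone, which had to differ to enter, and 10565 genes reached 1 TPM in all 6. Acot1, Col18a1 and Etv4 were just inside it, with a third-highest value of 1 TPM, and Ceacam15, Cyp1b1 and Elovl7 just outside it, at 0.99 TPM. The depth of a library cannot be read from TPM, and fold changes on the log2(TPM + 1) scale understate those of low genes.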

How the data were processed

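The deposited table held TPM values made by the authors for 55421 Ensembl gene IDs in 15 poly(A) RNA-seq libraries of 5 groups, 3 libraries each, and groups were taken from the labels. Per the submitters' processing notes the GRCm38 build, RSEM 1.3.3 and STAR 2.7.9a were used, whereas their options, strand setting and annotation release are not stated in those notes. Reads of overlapping and antisense genes may therefore be shared. TPM values keep no depth, so that the depth per library is unknown and no counting interval was computed.

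Genes reaching 1 TPM in 3 or more of the 6 Srci1 libraries were tested with limma 3.58.1 in R 4.3.3 on log2(TPM + 1), with a variance trend. All 15 libraries entered 1 model of 5 group means (10 residual degrees of freedom). The threshold was an adjusted p (Benjamini-Hochberg, over the 11832 genes) under 0.05, and every adjusted p is from this fit or its named alternative. A difference remained where it was called with DMSO and with Srci1 in the same direction, was lost or appeared where only 1 of these was called and the interaction passed, and turned where both were called in opposite directions and the interaction passed.

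The members and the 36 gene lists were chosen with earlier results of these data known. Named genes were a set of 16 lineage and signalling genes, the 8 largest differences in each direction, 4 per class and direction, and up to 4 per list by the smallest adjusted p. Csf2, Tigit, Runx3, Il12rb2, Prf1 and Tyk2 were added after their values were seen. Results of some genes that this rule names are not reported here.

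Symbols were taken for 55154 IDs. GENCODE release M21 (GRCm38) gave 1-based coordinates for 55240 of the IDs, and promoter windows are from RefSeq on GRCm38.p6. Alternatives were a pseudocount of 0.1, no filter, a filter at 5 TPM, median-of-ratios and quantile scaling, removal of ribosomal protein and mitochondrial genes, a fit of only the compared groups, a replicate block, and leaving out each library. List counts under other scalings were added after the data were seen.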

Additional observations from a re-analysis of the deposited data

Results flagged for a closer look

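Each value here is the interaction, the TH17 minus Treg difference with Srci1 minus that with DMSO on the log2(TPM + 1) scale, for a named gene where limma called it. A positive value means that TH17 stood higher relative to Treg with Srci1 than with DMSO.

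Among TH17 cytokines and their relatives the interaction was -5.17 for Il17a, -2.29 for Il17f, -0.94 for Il21 and 2.86 for Il9. For other genes described with the TH17 programme, IL-6 signalling or the largest differences it was 0.59 for Maf, 1.19 for Stat3, 0.91 for Socs3, 0.89 for Il21r, 1.27 for Gpr15, 2.62 for Upp1 and 1.66 for Procr. For genes of Treg cells and checkpoints it was 2.98 for Foxp3, 3.14 for Tigit, 1.62 for Itgae, 1.99 for Itgb3, 1.81 for Cd80 and 1.32 for Ccr8. For TH1 and cytotoxic genes it was 3.93 for Gzmb, 1.85 for Tbx21, 2.17 for Xcl1, 2.21 for Il12rb2 and 3.74 for Prf1. For signalling genes it was 1.24 for Jun, -1.1 for Egr3, 0.86 for Src and -1.54 for Id3.

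For differences that were lost it was -1.98 for Nebl, -1.96 for Id2, -1.56 for Kcnmb4, -1.16 for Kctd11, 5.29 for Il3, 4.46 for Serpina3f, 3.3 for Serpina3g and 2.79 for Dlk1. For those that appeared it was 3.27 for Il1rn, 2.54 for Slc2a2, 2.1 for Batf3, 2.49 for Rsph3a, -1.62 for Ms4a6c, -1.43 for Col15a1, -1.44 for Nsg2 and -1.19 for Ggct. For those that turned it was 3.34 for Ubd, 2.85 for Nupr1, 2.73 for Actr3b, 2.43 for Myadm, -1.56 for Cd24a, -1.49 for Ifitm1, -1.48 for St6galnac2, -1.37 for Rev3l and 1.42 for Ighm. For metabolic genes it was 2.06 for Egln3, 1.62 for Slc16a3, 0.61 for Slc2a1, 1.04 for Bnip3, 2.05 for Asns, 1.88 for Trib3, 1.05 for Ddit4, 0.54 for Phgdh, 0.96 for Nsdhl, 0.79 for Fdps and 1.36 for Fads2, and for the p53 target Cdkn1a 1.27.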

How the results depend on the processing

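With Srci1 the counts of higher and lower genes, and the counts of differences that remained, were lost or turned, stayed within 1.5 times their reported values under every alternative tried. Leaving out each library in turn gave 1644 to 1758 higher and 1935 to 2372 lower genes with Srci1, and 2457 to 3013 differences that remained. The counts that moved further were tied to scaling or to single libraries. Under median-of-ratios scaling the DMSO calls were 2655 higher and 2578 lower, under quantile normalization 2619 higher and 2560 lower, and the negative interaction calls numbered 679 and 819. Leaving out 1 library gave 234 to 365 negative interaction calls and 272 to 438 differences that appeared. The cause was not tested.

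Of 3363 results of single genes under the alternatives, 3296 kept their direction and their side of the threshold, 46 missed the threshold, 8 newly passed and 13 changed sign. For Il21 the interaction was 1.37 with a pseudocount of 0.1. The other sign changes concern Srci1 differences that were not called and lay near 0. Id2 was at 0.058 under median-of-ratios scaling, 0.003 without ribosomal protein and mitochondrial genes and -0.067 to 0.028 with 1 library left out. Serpina3g was at 0.069, 0.013 and -0.056 to 0.085 under the same alternatives and at 0.02 under quantile normalization. Kcnmb4 was at -0.038 to 0.4 with 1 library left out, and Lck at 0.007 under median-of-ratios scaling.

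Replicate numbers are shared by the groups, but libraries of the same number did not deviate together: over the Srci1 libraries their correlations were -0.045, 0.015 and 0.029, and not every library correlated best with its own number. With a replicate block the Srci1 calls were 1890 higher and 2454 lower, the DMSO calls 1446 and 3920, and the interaction calls 1291 and 307. With 3 libraries a group, no depth and 1 compound at 1 unstated concentration, small differences of low genes are beyond what these values can show.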

Other observations

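Of 10 tested p53 response genes, 5 were higher and 1 lower in TH17 Srci1 (16.5% and 21.4% of all tested genes). With DMSO 2 were higher and 3 lower (12.6% and 33.8% of all tested genes), so the share lower was near that of all genes. Under median-of-ratios scaling the DMSO counts were 2 and 1, against 2655 and 2578 of the 11832 tested genes. Cdkn1a, the cell cycle inhibitor p21, had 147, 143 and 146 TPM in TH17 Srci1 and 51.6, 48.2 and 55.4 TPM in Treg Srci1, against 151, 153 and 126 TPM in TH17 DMSO and 118, 125 and 126 TPM in Treg DMSO libraries. The Treg Srci1 libraries were the low ones, and the log2 difference was 1.48 ± 0.08 with Srci1 (limma, adjusted p = 4.06e-09) and 0.21 with DMSO. Zmat3, another p53 target, had 16.6, 13.6 and 15.3 TPM in TH17 Srci1 and 8.87, 9.41 and 9.31 TPM in Treg Srci1 libraries. Bax and Trp53inp1 had log2 differences of 0.27 and 0.61, and these calls were lost without replicate 2 of TH17 Srci1 for Bax (adjusted p = 0.0507) and without replicate 1 of TH17 Srci1 for Trp53inp1 (adjusted p = 0.0599).

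The MHC class II genes did not lie on one side. Cd74, the invariant chain, had 49.9, 61.3 and 55.4 TPM in TH17 Srci1 and 122, 118 and 105 TPM in Treg Srci1 libraries (log2 difference -1.04 ± 0.10). The β chain gene H2-Ab1 had 26.2, 31.8 and 29.5 TPM in TH17 Srci1 and 5.13, 6.32 and 6.49 TPM in Treg Srci1 libraries (log2 difference 2.11 ± 0.13). H2-Aa had 0.19, 0.94 and 0.41 TPM in TH17 Srci1 and 2.66, 2.64 and 4.13 TPM in Treg Srci1 libraries, and entered the test through Treg Srci1 alone. H2-Eb1, at 1.91, 1.28 and 2.44 TPM in TH17 Srci1 and 3.02, 3.02 and 2.94 TPM in Treg Srci1 libraries, was called (adjusted p = 0.0486) but missed without any 1 of 5 of the 6 Srci1 libraries, with adjusted p between 0.0805 and 0.21. Of the TFH genes, Tox had 6.06, 5.48 and 6.41 TPM in TH17 Srci1 and 14.9, 16.6 and 15.7 TPM in Treg Srci1 libraries, while its relative Tox2 had 2.66, 3.27 and 4.28 TPM in TH17 Srci1 and 0.09, 0.25 and 0.43 TPM in Treg Srci1 libraries. Tox2 entered the test through TH17 Srci1 alone. Cd40lg, the CD40 ligand gene, had 24.2, 19.1 and 21.9 TPM in TH17 Srci1 and 40.2, 46 and 43.3 TPM in Treg Srci1 libraries.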
